A study of Mus musculus with 21 samples.

Results

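Quadriceps muscle taken immediately (0 h) after an exhaustive treadmill bout was compared with quadriceps muscle of mice that had not exercised. The comparison used 8 of the 20 distinct RNA-seq libraries of the series, 5 at 0 h and 3 sedentary, and was defined by the sample labels and not by any measured value. All mice were wildtype (per the study's methods, adult male C57/Bl6), and all libraries were made from RNA of bulk tissue. Sedentary mice had neither training nor a bout (n = 3). Untrained mice ran the bout without training. Trained mice had 12 weeks of voluntary wheel running before the same bout. Further untrained and trained groups at 6 h and 72 h bring the series to 21 libraries. Replicate 1 of the untrained and replicate 1 of the trained 0 h group held the same values, so this library was counted as 1 sample, carried here under its untrained name, and its training state is not known. The 0 h group was therefore a pool of both training states: untrained replicates 1 to 3 and trained replicates 2 and 3 (n = 5). The labels number the replicates and do not state that each came from a separate animal, so the p-values measure the spread between these samples.

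Working muscle switches on genes within minutes. The earliest are the immediate early genes, mostly transcription factors such as the AP-1 (Fos and Jun), EGR and NR4A families, which are transcribed by factors already present in the resting fibre and whose mRNA is short-lived. Exercise also raises tissue temperature, uses fuel and oxygen, deforms the fibre and its vessels, and releases stress hormones. Known responses to these stimuli are the induction of heat shock chaperones by HSF1, of metabolic genes by the coactivator PGC-1α (Ppargc1a) and of glucocorticoid target genes.

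Expression was given as TPM, the abundance of a transcript per unit of length relative to all transcripts of the library. TPM keeps no read count, so depth is unknown and no counting error can be given. Between 11201 and 11890 gene symbols per library had at least 1 TPM. Genes whose mean over the 8 libraries reached 1 TPM were tested on the scale log2(TPM + 0.5) with limma and Benjamini-Hochberg adjustment over all 11885 tested genes. A gene was called, and is said to have risen or fallen, at an adjusted p below 0.05 and a fold change of at least 1.5. Differences are given on this log2 scale as 0 h minus sedentary with their standard error (SE), and for genes of low TPM they are smaller than the true change. The tissue label held: the muscle fibre markers Ckm (creatine kinase) and Acta1 (skeletal actin) had at least 14850 and 16391 TPM in every library, and 0 of the 9 fibre markers were called.

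Immediately after exercise, 414 genes differed from sedentary muscle, 3.48% of those tested. Of these, 380 (3.20%) were higher and 34 (0.286%) lower at 0 h, so 91.8% of the calls were rises. At an unadjusted p below 0.05 there were 2906 genes (24.5%). For all 414 called genes the 0 h libraries lay on 1 side of all sedentary ones, which was so for 2284 (19.2%) of all tested genes. Among the risen genes, 306 were nuclear protein-coding genes and 41 were long non-coding RNAs, and among the fallen ones 26 were protein-coding. The rises were also the larger changes. They exceeded a log2 difference of 1 for 210 genes, of 2 for 76 and of 3 for 28, while 16 genes fell by more than 1.

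**Figure D1:**
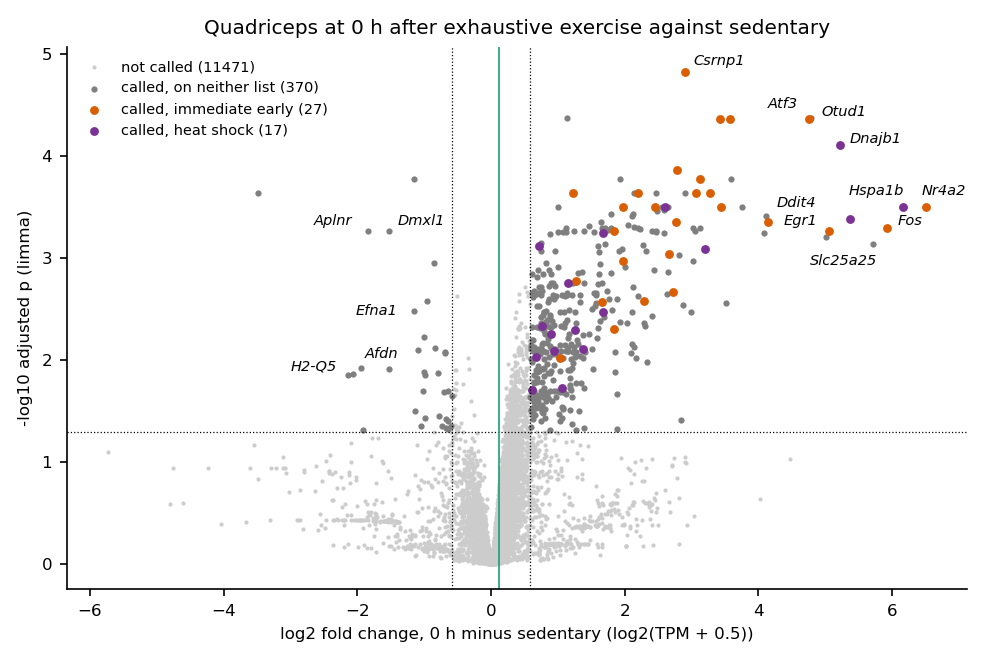
Log2 difference (0 h minus sedentary, x axis) and -log10 of the adjusted p from limma (y axis) for each of the 11885 tested genes. Coloured points are called genes (27 immediate early genes, 17 heat shock chaperones and 370 on neither list), dotted lines mark the fold change of 1.5 and the adjusted p of 0.05, and the green line is the median of all tested genes (0.11). The called genes lie mostly on the right, 380 of 414.

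The median log2 difference of all tested genes was 0.11, and changes are to be read against this shift. After median-of-ratios scaling the shift was 0.01 and the calls were 300 higher and 53 lower. When TPM was rescaled without the mitochondrial genome and the 10 highest genes, 334 genes were higher and 95 lower, a share of rises of 77.9%. Median-of-ratios scaling ended 10 calls named below, those of Pprc1 (log2 difference 0.70), G0s2 (1.10), Irs1 (0.71), Nfil3 (1.28), Csrp1 (0.49), Myf6 (0.51), Srsf3 (0.59), Hsp90b1 (0.50), Myh1 (0.52) and mt-Rnr2 (0.96). Sedentary replicate 3 had the highest sedentary value for 266 (70.0%) of the risen genes, against 63.1% of all tested genes. Of the 27 risen immediate early genes described below, 20 had their highest sedentary value in it. Without it 412 genes were higher and 32 lower.

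**Figure D2:**
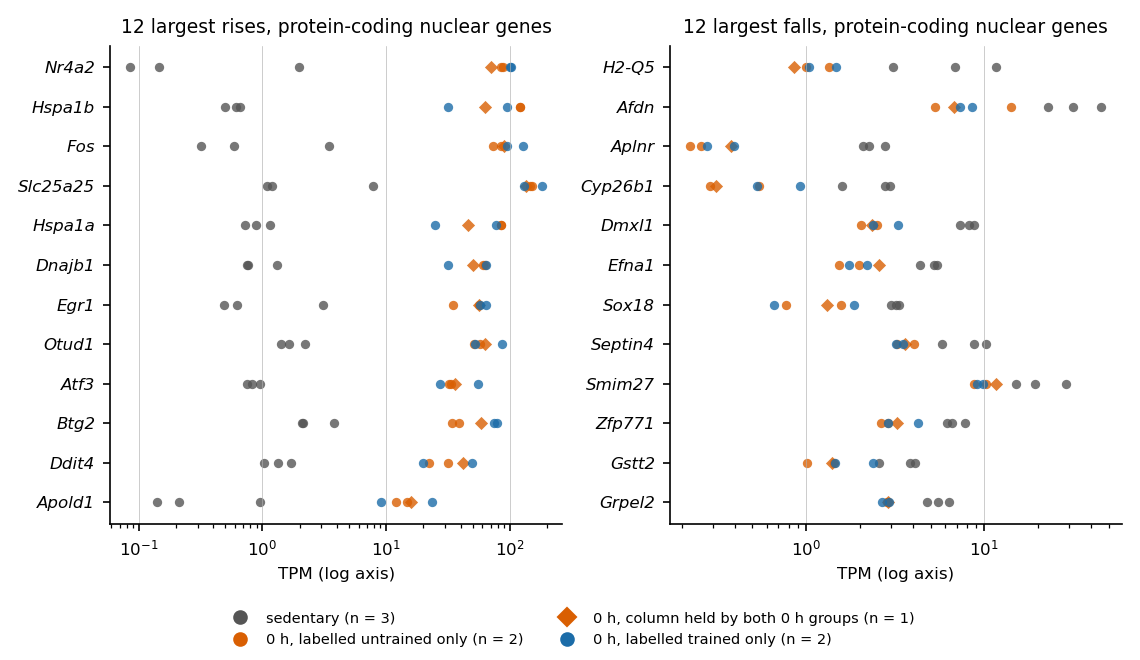
TPM (log axis) in each library for the 12 protein-coding genes with the largest rises (left) and the 12 with the largest falls (right) among called genes. Grey circles are sedentary libraries, orange and blue symbols untrained and trained 0 h libraries, with the diamond marking the library whose values both 0 h groups held. In every row the 5 libraries at 0 h lie on 1 side of the 3 sedentary ones, which was a condition for choosing these genes.

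Immediate early genes rose almost throughout. Most genes of this list encode transcription factors, but it also holds others, such as Zfp36, described below. Of the 34 genes of this list, 30 passed the filter on expression, and 27 of these rose, against 3.20% of all tested genes. None fell, and the median log2 difference was 2.69 against 0.11 for all genes. Fosl1, Egr4, Npas4 and Ier5l were below the filter. The filter used the mean over both groups. Members near 0 in sedentary muscle, such as Fosb (mean 0.0952 TPM) and Egr2 (0.108 TPM), therefore passed it only through their 0 h values. The count of 27 among 30 depends in part on this filter.

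The largest rise of any protein-coding gene was that of Nr4a2 (chr2:56996842-57014331), an orphan nuclear receptor of the NR4A family. Its TPM was 0.0857, 0.147 and 1.98 in sedentary replicates 1 to 3 and 70.6, 88.5, 84.1, 101 and 101 at 0 h (untrained 1, 2 and 3, then trained 2 and 3, the order used for all genes here). The sedentary libraries were close to 0, with replicate 3 highest, and every 0 h library was far above them. The log2 difference was 6.50 (SE 0.45, limma adjusted p = 0.000318), and 7.17 without sedentary replicate 3. The other family members rose as well. Nr4a1 went from 20.7 to 30.9 TPM in sedentary libraries to 143 to 199.9 TPM at 0 h, with a log2 difference of 2.79 (SE 0.15), and Nr4a3 from 0.0705 to 0.396 TPM to 4.41 to 6.91 TPM, with 3.13 (SE 0.18). Nr4a1 thus had the highest TPM of the family in every library, before and after the bout, and Nr4a2 the largest log2 difference.

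Among the AP-1 genes, Fos (chr12:85520658-85524047) had 0.320, 0.588 and 3.44 TPM in sedentary muscle and 88.9, 72.5, 84.1, 128 and 95 TPM at 0 h. The groups were well apart, with trained replicate 2 highest, and the log2 difference was 5.93 (SE 0.48, limma adjusted p = 0.000504). Its close relative Fosb stayed at a much lower level, with 0.0412 to 0.188 TPM in sedentary and 4.87 to 8.11 TPM in 0 h libraries, a log2 difference of 3.57 (SE 0.16). Fosl2 rose by 3.06. Of the Jun genes, whose products pair with those of the Fos genes, Junb rose by 3.43, Jun by 2.20 and Jund by 1.26 on the log2 scale. Jun was already present at 7.46 to 10.4 TPM in sedentary muscle and reached 36.8 to 52.3 TPM.

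Atf3, a stress-induced factor of the ATF family, had 0.744, 0.948 and 0.829 TPM in sedentary muscle and 36.3, 32.4, 33.2, 55.0 and 27.0 TPM at 0 h. Its sedentary libraries lay close together and were far below all 0 h libraries. The log2 difference was 4.76 (SE 0.20, limma adjusted p = 4.33e-05). Egr1, a zinc finger factor on chromosome 18, had 0.489, 0.627 and 3.10 TPM in sedentary muscle and 56.6, 34.5, 56.1, 56.9 and 63.6 TPM at 0 h, a log2 difference of 5.06 (SE 0.42, limma adjusted p = 0.000542). Untrained replicate 2 was the lowest 0 h library and still far above the sedentary ones. Egr2 and Egr3 rose by 1.97 and 2.28 and reached at most 2.33 and 4.23 TPM.

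The gene with the lowest adjusted p was Csrnp1, a nuclear protein known as a target of AXIN1 signalling. It had 0.743, 0.613 and 0.570 TPM in sedentary and 8.58, 6.79, 8.13, 8.29 and 8.34 TPM in 0 h libraries, with little spread within either group (log2 difference 2.90, SE 0.09, limma adjusted p = 1.5e-05). Btg2, an antiproliferative regulator of mRNA decay, rose by 4.14. The Krüppel-like factors Klf4 and Klf2 rose by 3.42 and 3.27, and Klf6 and Klf10 by 1.83 and 1.85. Zfp36, whose product binds AU-rich elements and destabilises short-lived mRNA, rose by 2.77 from 1.54 to 3.02 TPM in sedentary to 12.4 to 19.6 TPM in 0 h libraries. The tested genes of this list that were not called were Srf (log2 difference 0.28, limma adjusted p = 0.081), Cebpd (0.98, adjusted p = 0.0501) and Myc (0.55, adjusted p = 0.191). Srf encodes serum response factor, which drives many of the genes above. Its TPM was 23.1 to 26.8 in sedentary and 28.5 to 33.6 in 0 h libraries.

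Promoter windows of some of these genes are printed here because they carry short sequences that factors of this response are known to bind. RefSeq promoters (GRCm38.p6, from 250 bases before to 50 bases after the start) were matched for 8184 tested genes, 257 of the risen, 19 of the fallen and 22 of the risen immediate early genes. The cyclic AMP response element TGACGTCA, bound by CREB and ATF factors, was found on either strand in 3.63% of all these promoters, 8.56% of those of risen genes and 9.09% of those of risen immediate early genes. The capitals below mark this element in the promoters of Maff (chr15:79347451-79347538, plus strand), which encodes a small MAF factor and rose by 2.45, and of Btg2 (chr1:134079274-134079361, minus strand).
Maff: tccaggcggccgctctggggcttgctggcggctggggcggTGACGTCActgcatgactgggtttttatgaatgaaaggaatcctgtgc
Btg2: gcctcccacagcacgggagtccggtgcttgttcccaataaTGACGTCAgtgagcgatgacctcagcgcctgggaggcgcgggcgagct
The CArG box, the sequence known to bind serum response factor, was found in 1.72% of all promoters, 3.50% of those of risen genes and 9.09% of those of risen immediate early genes. The capitals mark it in windows of Egr2 (chr10:67537757-67537846, plus strand) and Zfp36 (chr7:28379237-28379326, minus strand).
Egr2: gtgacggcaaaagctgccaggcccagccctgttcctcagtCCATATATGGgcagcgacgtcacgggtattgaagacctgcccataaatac
Zfp36: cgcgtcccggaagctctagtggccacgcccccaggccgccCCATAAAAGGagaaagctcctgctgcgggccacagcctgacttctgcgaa
The AP-1 site TGANTCA was found in 5.90% of all promoters, 10.1% of those of risen genes and 4.55% of those of risen immediate early genes, the E-box CACGTG in 12.1%, 16.7% and 22.7%, and the GC box GGGGCGGGG in 25.3%, 25.7% and 31.8%. Over the 22 immediate early promoters these shares are 1 promoter with the AP-1 site, 5 with the E-box and 7 with the GC box, and 2 each with the cyclic AMP response element and the CArG box. In promoters of fallen genes these 3 sequences were found in 5.26%, 10.5% and 15.8%, and neither the cyclic AMP response element nor the CArG box was found in the 19. These matches describe the letters in these windows and were not tested.

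Of 27 tested MAP kinase, CREB and NF-kB feedback genes, 13 rose (48.1%), 14 were not called and 0 fell. The median log2 difference of this list was 0.57. Not every member is an inhibitor of these pathways, as the descriptions of Gadd45g and Tob2 below show. Over all tested genes 3.20% rose and 0.286% fell, and the counts of this and every list below are to be read against these shares. Sik1 (chr17:32058850-32074818), a kinase that is induced by CREB and limits its coactivators, had 0.805, 0.855 and 1.72 TPM in sedentary and 19.3, 16.2, 15.9, 23.7 and 18.4 TPM in 0 h libraries. The groups were far apart, and the log2 difference was 3.59 (SE 0.20, limma adjusted p = 0.00017). Dusp1, a phosphatase that inactivates p38 and JNK, had 13.6 to 21.9 TPM in sedentary and 75.7 to 124 TPM in 0 h libraries (log2 difference 2.59, SE 0.22). It overlaps Ergic1, and the library kit does not mark strand, so reads of the pair cannot be told apart. Errfi1, an inhibitor of the EGF receptor, rose by 2.59, Tob2, an antiproliferative partner of mRNA deadenylation, by 2.47, and Gadd45g, a stress sensor upstream of p38, by 2.28. Spry4, an inhibitor of receptor tyrosine kinase signalling, rose by 1.30 from at most 0.834 TPM.

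Smaller rises were those of Rgs2 (1.22), Pde4b (1.15), Crem (1.14), Zfp36l1 (0.97), Pde4d (0.73), Nfkbia (0.69) and Tob1 (0.63). Other members of the same families did not pass. Dusp6, the phosphatase of ERK, had 2.12 to 4.22 TPM in sedentary and 1.82 to 2.63 TPM in 0 h libraries (log2 difference -0.58, limma adjusted p = 0.133). Gadd45a was level, with 8.998 to 11.02 TPM and 8.22 to 11.9 TPM. Socs3, the feedback inhibitor of STAT3, had a log2 difference of 0.57 (adjusted p = 0.175), and Rcan1, the calcineurin inhibitor, of 0.48 (adjusted p = 0.174).

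The heat shock chaperones were the other group with very large rises. All 38 genes of the list were tested, 17 rose (44.7%, against 3.20% of all tested genes) and 0 fell. The log2 difference was above 0 for 38 of 38, with a median of 0.57. Signs above 0 were also common in some lists without calls, as for 72 of 77 cytosolic ribosomal protein genes. Their summed level was 2512 to 2998 TPM in sedentary and 4443 to 5369 TPM in 0 h libraries.

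The HSP70 gene Hspa1b (chr17:35175412-35178214) had 0.501, 0.608 and 0.659 TPM in sedentary and 63.3, 121, 120.4, 95.1 and 31.4 TPM in 0 h libraries. Sedentary libraries were all below 1 TPM, and trained replicate 3 was the lowest of the 0 h libraries by a wide margin. The log2 difference was 6.16 (SE 0.43, limma adjusted p = 0.000318). The neighbouring copy Hspa1a went from 0.725 to 1.15 TPM to 25.0 to 85.4 TPM (5.37, SE 0.41). The copies are nearly identical, so the reads of the pair may have been divided between them, and Hspa1a also overlaps Gm20481. Dnajb1, the HSP40 partner that delivers clients to HSP70, had 0.753, 0.761 and 1.32 TPM in sedentary and 50.5, 63.5, 60.4, 64.1 and 31.5 TPM in 0 h libraries (5.21, SE 0.25, limma adjusted p = 7.78e-05). Here too trained replicate 3 was lowest of the 0 h libraries.

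The inducible HSP90 gene Hsp90aa1 (chr12:110656842-110669166) had 9.13, 16.2 and 12.0 TPM in sedentary and 109, 175, 136, 113 and 70.1 TPM in 0 h libraries, a log2 difference of 3.20 (SE 0.29, limma adjusted p = 0.000821). Its constitutive paralog Hsp90ab1 had a much higher resting level and a much smaller change, from 567 to 649 TPM to 915 to 1052 TPM (0.71, SE 0.06). The HSP70 family was divided likewise. Constitutive Hspa8 had 292, 621 and 317 TPM in sedentary and 688 to 1198 TPM in 0 h libraries, a log2 difference of 1.12 that did not pass (limma adjusted p = 0.0627), with sedentary replicate 2 far above the others. Dnaja1, an HSP40 gene, rose by 2.60 (SE 0.18), though it overlaps Smu1. Hsph1, a nucleotide exchange factor of HSP70, was very even within groups, with 18.5, 17.9 and 18.2 TPM in sedentary and 43.6 to 69.5 TPM in 0 h libraries (1.68, SE 0.14). The small heat shock protein Hspb1 rose by 1.67, Cryab by 0.67, the collagen chaperone Serpinh1 by 1.38 and the co-chaperone Bag3 by 0.94.

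Of the mitochondrial chaperonin pair, Hspe1 rose by 0.90 (44.5 to 50.8 TPM and 69.6 to 97.8 TPM), and its partner Hspd1, with 52.5 to 55.3 TPM and 73.1 to 88.1 TPM, had a log2 difference of 0.58 (limma adjusted p = 0.0028) just below the fold change of 1.5. The transcription factors of this response were not called: Hsf1 had 12.3 to 16.0 TPM in sedentary and 14.4 to 17.7 TPM in 0 h libraries (0.22, adjusted p = 0.213), and Hsf2 differed by 0.04. In the trained 0 h libraries alone (n = 2), 6 of the 38 chaperones were called, and the median of the list was 0.56.

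The heat shock element, 3 inverted repeats of GAA that bind HSF1, was present in 0.648% of all promoters and in 14.3% of the 14 matched promoters of risen chaperones, which are those of Hsph1 (chr5:149636266-149636340, minus strand) and Hspe1 (chr1:55088019-55088111, plus strand). It is marked below in capitals. In Hsph1 the match lies after the annotated start.
Hsph1: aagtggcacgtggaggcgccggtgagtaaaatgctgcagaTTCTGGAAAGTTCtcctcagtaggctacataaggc
Hspe1: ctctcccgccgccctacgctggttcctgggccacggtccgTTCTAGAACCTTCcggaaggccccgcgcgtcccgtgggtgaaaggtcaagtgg
The shorter core GAANNTTC, searched after the values were seen, was found in 7.18% of all promoters, 7.78% of those of risen genes and 50% (7) of those of the risen chaperones.

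Of 29 tested genes of the list of PPAR targets and fuel switching, 3 rose, 26 were not called and 0 fell. The risen share was 10.3%, against 3.20% of all tested genes. Slc25a25 (chr2:32303547-32341482), a mitochondrial carrier that exchanges ATP-Mg for phosphate, had 1.08, 1.19 and 7.85 TPM in sedentary and 134, 150.1, 144, 181 and 129 TPM in 0 h libraries. Sedentary replicate 3 was well above the other sedentary libraries and far below every 0 h library. The log2 difference was 5.71 (SE 0.51, limma adjusted p = 0.000738), and 6.49 without sedentary replicate 3. It was not called with only the trained 0 h libraries (5.77, n = 2), and it overlaps Naif1. The other calls of the list were smaller. Arrdc4, an arrestin-like gene of glucose uptake, rose by 0.95 and G0s2, an inhibitor of adipose triglyceride lipase, by 1.21 (limma adjusted p = 0.0425). The call of G0s2, which overlaps Lamb3, was lost without any 1 library other than sedentary replicate 3 and trained replicate 2 (1.04 to 1.42). The list's median was 0.04, and it was negative under each other scaling (-0.12 to -0.07).

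Pdk4, the kinase that turns off pyruvate dehydrogenase, was variable in both groups, with 181, 170.0 and 56.6 TPM in sedentary and 117, 71.3, 142, 117 and 192 TPM in 0 h libraries. The groups overlapped, and the log2 difference was 0.01 (SE 0.44, limma adjusted p = 0.987). It was -0.53 without sedentary replicate 3. Ppargc1a (PGC-1α) had 3.04, 4.30 and 4.34 TPM in sedentary and 3.55, 5.25, 3.44, 4.84 and 4.33 TPM in 0 h libraries. Here too the groups overlapped (0.12, SE 0.16, limma adjusted p = 0.676). Of the 20 tested PGC-1 coactivators and nuclear receptors, the related coactivator Pprc1 rose, by 0.81 (adjusted p = 0.0365). This call was kept without sedentary replicate 2 and lost without any other library (0.55 to 0.96), and Pprc1 overlaps Ldb1. The median of this list was 0.03 and turned negative under each other scaling (-0.12 to -0.07).

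Irs2 (chr8:11034681-11059499), the insulin receptor substrate, had 1.94, 1.93 and 2.22 TPM in sedentary and 14.9, 15.0, 13.0, 23.3 and 12.6 TPM in 0 h libraries. The log2 difference was 2.65 (SE 0.19, limma adjusted p = 0.000318), with trained replicate 2 above the other 0 h libraries and no overlap. Ppp1r3c, which targets protein phosphatase 1 to glycogen, rose by 1.40, from 51.0 to 76.3 TPM to 133 to 247 TPM. Irs1 rose by 0.81 (adjusted p = 0.0214). Its call was lost without any 1 sedentary library or trained replicate 2 (0.74 to 0.93 over the 8 fits that each left out 1 library). These were the 3 calls among 32 tested genes of glucose uptake, glycogen and glycolysis, with a list median of 0.18. The glucose transporter Slc2a4 had a log2 difference of 0.24 (adjusted p = 0.0613) and hexokinase Hk2 of 0.09 (adjusted p = 0.791).

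Of 16 tested hypoxia-responsive genes, 2 rose (12.5%, against 3.20% of all tested genes). The list's median was 0.07 and negative under each other scaling (-0.10 to -0.05). Ddit4 (chr10:59785491-59788492), the mTORC1 inhibitor REDD1, had 1.03, 1.33 and 1.71 TPM in sedentary and 42.1, 31.7, 22.4, 49.3 and 20.02 TPM in 0 h libraries. All 0 h libraries were far above the sedentary ones (4.11, SE 0.31, limma adjusted p = 0.000386). P4ha1, a prolyl hydroxylase of collagen, rose by 0.80. The angiogenic factor Vegfa had 80.5, 89.3 and 91.5 TPM in sedentary and 94.2, 100.2, 91.8, 97.7 and 106 TPM in 0 h libraries. The groups did not overlap, but the log2 difference of 0.17 (SE 0.07) was not called (limma adjusted p = 0.186) and was close to the shift of all genes. Hif1a differed by -0.02.

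Other genes among the 12 largest rises belonged to none of these groups. Otud1, a deubiquitinase, had 1.41, 1.64 and 2.19 TPM in sedentary and 62.7, 57.1, 51.6, 86.1 and 52.6 TPM in 0 h libraries (4.79, SE 0.19, limma adjusted p = 4.31e-05). Apold1, an early gene of endothelial cells, went from 0.141 to 0.953 TPM to 9.03 to 23.5 TPM (4.08, SE 0.35). In neither gene did the groups overlap, which the choice of the largest rises required. The Apold1 call was lost with only the trained 0 h libraries (4.11, n = 2).

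Of 18 tested secreted factors linked to exercise, 6 rose (33.3%, against 3.20% of all tested genes) and 0 fell. The matricellular proteins Ccn1 and Ccn2 and thrombospondin Thbs1 are known to respond to stretch of cells and vessels. Ccn1 had 4.06, 4.70 and 9.51 TPM in sedentary and 56.3, 41.8, 54.4, 59.8 and 58.2 TPM in 0 h libraries (3.13, SE 0.25, limma adjusted p = 0.00051). The 0 h libraries were within 41.8 to 59.8 TPM and clear of the sedentary ones. Thbs1 rose by 2.91 and Ccn2 by 1.93. Sdc4, a syndecan, rose by 1.22. Cxcl1, a chemokine that attracts neutrophils, rose by 1.89 to at most 3.11 TPM (adjusted p = 0.0215), a call lost without sedentary replicate 1 or 2 (1.80 to 2.02). The myokine Il6 was below the filter, with 0 to 0.0611 TPM in sedentary and 0.0539 to 0.190 TPM in 0 h libraries. Mstn (myostatin, 0.44, adjusted p = 0.109), Fndc5 (the irisin precursor, 0.01) and the monocyte chemokine Ccl2 (1.36, adjusted p = 0.13) were not called.

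Among the 34 falls were single genes of endothelial cells. Aplnr (chr2:84966569-84970267), the apelin receptor of endothelial cells, had 2.09, 2.78 and 2.26 TPM in sedentary and 0.379, 0.256, 0.223, 0.277 and 0.396 TPM in 0 h libraries. All 0 h libraries were below all sedentary ones (log2 difference -1.83, SE 0.15, limma adjusted p = 0.000542). Efna1, the ephrin A1 ligand, fell by 1.15, from 4.38 to 5.45 TPM to 1.53 to 2.58 TPM. Sox18, an endothelial transcription factor, had 3.00 to 3.32 TPM and 0.660 to 1.85 TPM (-1.14, adjusted p = 0.0313). Its call was kept only without untrained replicate 2, trained replicate 2 or trained replicate 3 (-1.26 to -1.01 over all 8 fits).

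General markers of these cells moved little. Of 10 tested endothelial markers, 1 fell and 0 rose. Their median was -0.08, and their summed level was 96.0 to 122 TPM in sedentary and 100.5 to 115 TPM in 0 h libraries. The one called was Kdr, the VEGF receptor 2, with 5.97 to 7.67 TPM and 3.65 to 5.41 TPM (-0.60, limma adjusted p = 0.0438), while Pecam1 and Cdh5 each had a log2 difference of -0.15 (adjusted p = 0.301 and 0.472). Of 7 tested pericyte and smooth muscle markers, Pdgfrb fell by 0.59 (adjusted p = 0.0226). The Kdr call was lost without any 1 library but trained replicate 3 (-0.71 to -0.54), and that of Pdgfrb was kept without sedentary replicate 1, untrained replicate 2 or trained replicate 3 (-0.70 to -0.51). In bulk muscle, fewer cells of a type and less RNA per cell cannot be told apart.

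Among the other large falls, Dmxl1, a regulator of vesicle acidification, had 7.31, 8.79 and 8.18 TPM in sedentary and 2.35, 2.49, 2.05, 2.37 and 3.298 TPM in 0 h libraries (-1.52, SE 0.13, limma adjusted p = 0.000542). Afdn (chr17:13980555-14126680), the junction protein afadin, had 45.5, 31.7 and 22.7 TPM in sedentary and 6.79, 14.1, 5.27, 7.27 and 8.502 TPM in 0 h libraries (-1.94, SE 0.32, adjusted p = 0.0119). The groups were apart in both genes, which the choice of the largest falls required. The group means of Dmxl1 were also below its sedentary mean of 8.09 TPM at 6 h and 72 h, but most of these groups were widely spread. In untrained muscle the means were 1.99 TPM (1.59 to 2.36 TPM) at 6 h and 5.95 TPM (2.35 to 7.95 TPM) at 72 h. The highest untrained library at 72 h was thus within the sedentary range. In trained muscle the means were 3.41 TPM (1.78 to 6.51 TPM) and 3.63 TPM (1.85 to 6.79 TPM). These later levels were not tested. The Afdn call was lost without sedentary replicate 1 or 2 (-1.69 and -1.95). Cyp26b1, which degrades retinoic acid, fell by 1.52, Septin4 by 1.09, the zinc finger gene Zfp771 by 1.01 and Grpel2, a co-chaperone of mitochondrial import, by 0.85. H2-Q5 had the largest fall of the protein-coding genes (3.06 to 11.7 TPM and 0.856 to 1.48 TPM, -2.07, adjusted p = 0.0138). It belongs to the multigene MHC class I family, whose reads may be divided between members, and its call was lost without sedentary replicate 1 (-2.02, adjusted p = 0.0648). Smim27, which overlaps Ndufb6 and Topors, fell by 1.01, a call lost without sedentary replicate 2 or trained replicate 2 (-1.22 to -0.77 over the 8 fits). Gstt2, a glutathione transferase, fell by 0.99, and its call was kept without sedentary replicate 3 or trained replicate 3 and lost without any other library (-1.17 to -0.88).

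Of 16 tested genes of the list of glucocorticoid-responsive genes, 9 rose, 7 were not called and 0 fell, with a median of 1.17. The risen share was 56.2%, against 3.20% of all tested genes. Without sedentary replicate 1, 5 were called. The metallothioneins Mt2 and Mt1, which buffer zinc, rose by 2.55 and 2.27. Mt2 had 3.95, 4.88 and 3.69 TPM in sedentary and 36.6, 24.3, 20.6, 29.5 and 25.1 TPM in 0 h libraries. The groups were far apart, with the library shared by the 0 h groups highest. Tsc22d3 (GILZ), an anti-inflammatory mediator of glucocorticoids, had 35.1, 31.7 and 38.6 TPM in sedentary and 128, 96.7, 101, 137 and 104 TPM in 0 h libraries (1.67, SE 0.13, limma adjusted p = 0.00051). Cdkn1a, the cell cycle inhibitor p21, rose by 2.01, the small GTPase Rhob by 1.54 and the co-chaperone Fkbp5 by 1.15. The kinase Sgk1 rose by 1.21, a call kept only without sedentary replicate 3, untrained replicate 3 or trained replicate 3 (1.01 to 1.47 over the 8 fits). Other known targets were level: Klf9 differed by 0.19, Klf15 by 0.03 and Zbtb16 by 0.00.

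Of 19 tested genes of the core clock and its output, 4 rose and 1 fell, against 3.20% and 0.286% of all tested genes. Per1 (chr11:68986035-69002300), a repressor of the clock that is also induced by CREB and by glucocorticoids, had 2.11, 1.19 and 2.73 TPM in sedentary and 13.8, 18.4, 20.2, 27.7 and 19.8 TPM in 0 h libraries. No 0 h library was near the sedentary range (3.04, SE 0.26, limma adjusted p = 0.000545). Ciart, another clock repressor, rose by 2.44, the deubiquitinase Usp2 by 1.26 and the repressor Nfil3 by 1.39 (adjusted p = 0.0463). Nr1d1 (REV-ERBα) had 51.2 to 54.8 TPM in sedentary and 25.0 to 40.6 TPM in 0 h libraries (-0.65, adjusted p = 0.0473). The Nfil3 call was kept only without trained replicate 3 (1.22 to 1.58 over the 8 fits), and the Nr1d1 call only without untrained replicate 3 (-0.71 to -0.54). Per2 (1.22, adjusted p = 0.0625), Arntl (-0.43, adjusted p = 0.344) and Dbp (-0.05, adjusted p = 0.95) were not called. The labels used here give no time of day for any sample, so a difference in it between groups cannot be told apart from the bout.

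Of 23 tested genes of endoplasmic reticulum stress and the integrated stress response, 3 rose (13%, against 3.20% of all tested genes) and 0 fell. The differences were mostly small and above 0, with a median of 0.30. They were above 0 for 21 of 23, which was also so for 75 of 84 nuclear genes of oxidative phosphorylation, a list without calls. At an unadjusted p below 0.05 were 18 of 23, against 24.5% of all tested genes. The risen genes were Ppp1r15a (GADD34), which ends the block on translation (0.95), and the chaperones Hspa5 (BiP, 0.78) and Hsp90b1 (0.61). The call of Hsp90b1 was lost without sedentary replicate 1 or 2, untrained replicate 3 or trained replicate 2 (0.56 to 0.68). Atf4, the central factor of the integrated stress response, had 43.9 to 57.6 TPM and 64.4 to 80.8 TPM (0.52, limma adjusted p = 0.0358, under the fold change of 1.5). Its targets Ddit3 (-0.31, adjusted p = 0.636) and Chac1 (-0.93, adjusted p = 0.478) were not called and overlapped between groups.

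Among 23 tested class IIa HDAC, MEF2 and myogenic regulator genes, 4 rose. Id1, which keeps myogenic factors from binding DNA, had 1.93, 1.82 and 4.02 TPM in sedentary and 15.4, 14.5, 14.5, 15.1 and 11.9 TPM in 0 h libraries (2.32, SE 0.22, limma adjusted p = 0.000847), and Id3 rose by 0.89. Myog (myogenin) had 0.826, 0.724 and 1.27 TPM in sedentary and 6.18, 2.84, 4.12, 7.39 and 3.91 TPM in 0 h libraries (1.85, SE 0.28, adjusted p = 0.00827). Both genes were clear of their sedentary range in every 0 h library. Myf6 rose by 0.63 (adjusted p = 0.0378), a call kept only without trained replicate 3 (0.56 to 0.69). Myod1 was not called (0.60, adjusted p = 0.239), nor were Hdac4, Hdac5 and Mef2c (0.18, 0.21 and 0.01).

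Of 27 tested temperature-responsive and splicing regulators, 3 rose and 1 fell. Cirbp (chr10:79997069-80008626), the cold-inducible RNA-binding protein, had 20.8, 23.4 and 20.9 TPM in sedentary and 13.9, 12.1, 12.1, 11.2 and 17.0 TPM in 0 h libraries (-0.70, SE 0.13, limma adjusted p = 0.0206). The call was lost without sedentary replicate 1 or 2 or untrained replicate 2 (-0.79 to -0.65). Rbm3, the related cold-inducible gene, had 38.0 to 44.8 TPM and 32.9 to 40.1 TPM and was not called (-0.16, adjusted p = 0.304). The splicing genes Rsrp1, Tra2a and Srsf3 rose by 0.87, 0.77 and 0.70, and the call of Srsf3 was kept only without sedentary replicate 3, untrained replicate 2 or trained replicate 2 (0.63 to 0.80). Of 11 tested polyamine genes, Sat1, which acetylates polyamines for export, rose by 1.18 and Odc1, the rate-limiting enzyme of their synthesis, by 0.84. The Odc1 call was lost without sedentary replicate 2 (0.83).

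The contractile and metabolic machinery of the fibre was mostly level. None of 33 tested genes of calcium handling (median 0.15, lowest limma adjusted p = 0.0296 below the fold change of 1.5), 24 atrophy and autophagy genes (0.13), 84 nuclear genes of oxidative phosphorylation (0.11) or 77 cytosolic ribosomal protein genes (0.17) was called, and these medians lay close to the 0.11 of all genes and between -0.06 and 0.05 under the other scalings. Of 22 tested stretch-sensing genes, Csrp1 rose by 0.60, a call lost without sedentary replicate 1 or trained replicate 2 (0.50 to 0.66). The stretch-induced repressor Ankrd1 had 1.63 to 2.68 TPM and 3.01 to 5.43 TPM (0.72, adjusted p = 0.0756).

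Of 11 fast fibre genes, Myh1, the IIx myosin heavy chain, rose by 0.64 (805 to 828 TPM and 1009.7 to 1485 TPM, limma adjusted p = 0.0259). This call was kept only without untrained replicate 1 or 3 (0.58 to 0.72 over the 8 fits), and Myh1 overlaps an antisense RNA. The higher level was not limited to 0 h. Against a sedentary mean of 817 TPM, Myh1 had means of 859 and 1154 TPM at 6 h and 72 h in untrained muscle. In trained muscle they were 1223 and 1312 TPM. The IIb gene Myh4 was not called (0.46, adjusted p = 0.063). The 7 tested slow fibre genes were not called, but each had a log2 difference below 0, with a median of -0.77. Their summed level ranged widely, with 562 to 1085 TPM in sedentary and 284 to 742 TPM in 0 h libraries. Myh7, the slow myosin, had 33.7, 33.2 and 89.4 TPM in sedentary and 17.8, 11.7, 27.3, 64.1 and 27.0 TPM in 0 h libraries, and the groups overlapped (-0.87, adjusted p = 0.362). Sedentary replicate 3 was the highest library for Myh7, and without it the median of the list was -0.45. The part of fibre composition in the other results was not tested.

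**Figure D3:**
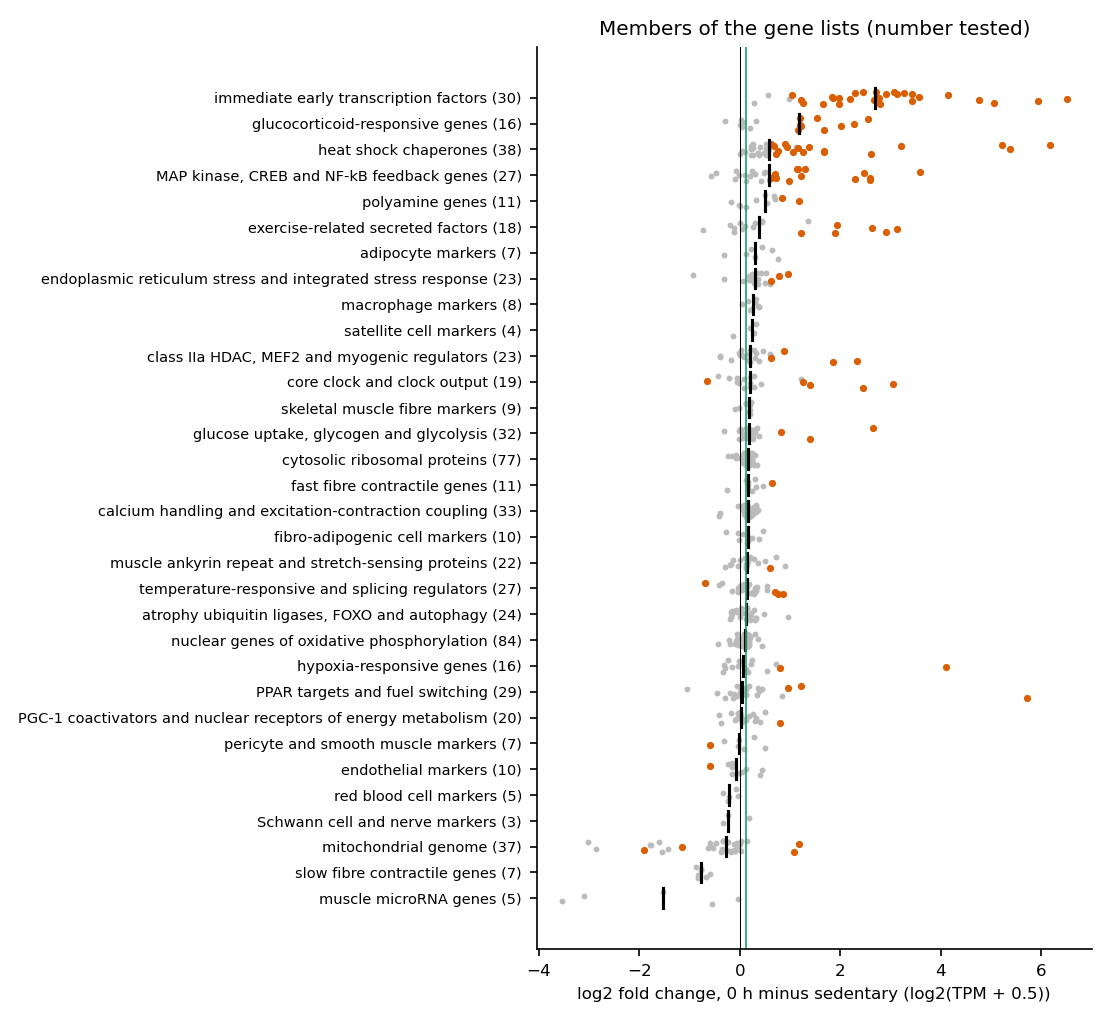
Log2 difference (0 h minus sedentary, x axis) of every tested member of 32 gene lists (1 list per line). Orange points are called genes, the black bar is the median of the list and the green line the median of all tested genes (0.11). Immediate early genes (median 2.69) and glucocorticoid targets (1.17) stand to the right. Slow fibre genes (-0.77) and muscle microRNA genes (-1.54) stand to the left without calls.

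The mitochondrial genome took up a smaller share of the total at 0 h. It held 44.3%, 46.9% and 42.2% of all TPM in sedentary and 37.7%, 40.6%, 39.4%, 39.8% and 39.0% in 0 h libraries. Every 0 h library was below every sedentary one. The means were 44.5% ± 2.39 (SD, n = 3) and 39.3% ± 1.06 (SD, n = 5), a difference of -5.18 percentage points (exact permutation test, two-sided p = 0.0357, the smallest p this design allows). Since TPM is a share of a fixed total, a smaller share here leaves more for all other genes, and the median log2 difference of 0.11 moves with it. Whether one accounts for the other was not tested.

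**Figure D4:**
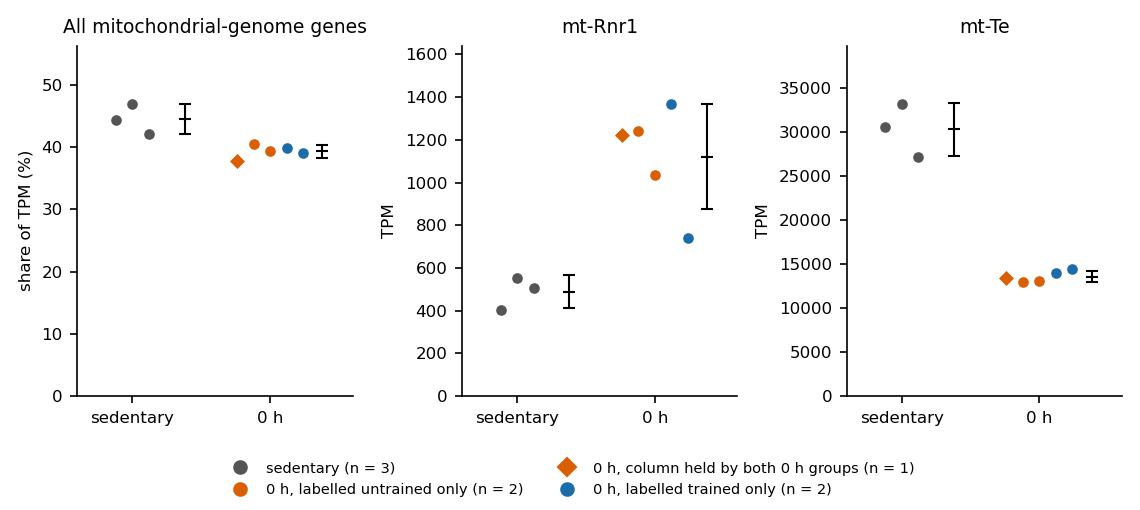
Share of all TPM held by genes of the mitochondrial genome (left, %), TPM of the ribosomal RNA mt-Rnr1 (middle) and TPM of the transfer RNA mt-Te (right) in each sedentary and 0 h library. Points are libraries, bars mark mean ± SD (n = 3 and 5), and y axes start at 0. The share and mt-Te are lower and mt-Rnr1 is higher in all 0 h libraries.

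Within this genome the classes of RNA moved differently. Of its 37 genes, 2 rose and 2 fell, with a median of -0.27. Both ribosomal RNAs rose. mt-Rnr1 (chrM:70-1024) had 403, 553 and 508 TPM in sedentary and 1221, 1242, 1037, 1368 and 739 TPM in 0 h libraries (1.18, SE 0.21, limma adjusted p = 0.0151), and mt-Rnr2 rose by 1.08. Trained replicate 3 had the least of the 0 h libraries and still more than any sedentary one. The glutamate transfer RNA mt-Te (chrM:14071-14139) fell from 30578, 33146 and 27164 TPM to 13408, 12905, 13102, 13934 and 14375 TPM (-1.16, SE 0.07, adjusted p = 0.00017), without overlap and with little spread. The glycine transfer RNA mt-Tg fell by 1.91 (adjusted p = 0.0485). The mRNAs mt-Nd1 (-0.10, limma adjusted p = 0.106) and mt-Co1 (-0.07, adjusted p = 0.266) were not called. As a class, the mitochondrial mRNAs nevertheless held less of the total. Their share of the TPM of all protein-coding genes was 46.9% ± 2.13 (SD) in sedentary and 43.0% ± 1.26 (SD) in 0 h libraries. The difference was -3.97 percentage points (exact permutation test, two-sided p = 0.0357), again with every 0 h library below every sedentary one. The mt-Rnr1 call was lost without sedentary replicate 1 (1.05), the mt-Rnr2 call without any 1 sedentary library or untrained replicate 2 (0.98 to 1.22 over the 8 fits), and the mt-Tg call was kept only without untrained replicate 3 or trained replicate 2 (-2.12 to -1.55). The kit makes libraries from RNA with a poly(A) tail, and ribosomal and transfer RNA values depend on how much of them passed that step, which was not tested.

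MicroRNAs are shorter than the fragments such libraries are made of. Of 15 muscle microRNA genes, 10 were below the filter, and none of the 5 tested was called. Mir133a-2 had 49.8, 47.9 and 26.1 TPM in sedentary and 3.96, 3.33, 3.53, 0 and 13.7 TPM in 0 h libraries (-3.54, limma adjusted p = 0.067).

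Markers of other cell types in the tissue were mostly level. Of the 10 neutrophil and 8 lymphocyte markers, 0 reached the filter, and their summed levels were 1.74 to 2.40 and 0.867 to 1.17 TPM in sedentary and 1.48 to 2.85 and 0.905 to 1.47 TPM in 0 h libraries. None of 8 tested macrophage markers was called, although all 8 had a log2 difference above 0 (median 0.27). Their summed level was 45.1 to 49.5 TPM in sedentary and 56.3 to 62.4 TPM in 0 h libraries, so the groups did not overlap. This was not particular to macrophage markers. The summed muscle fibre markers did not overlap either (36197 to 41869 TPM and 43082 to 46783 TPM), nor did 19.2% of all tested genes singly. C1qb, a complement gene of resident macrophages, had a log2 difference of 0.37 (limma adjusted p = 0.00593), below the fold change of 1.5. None of the tested markers of fibro-adipogenic cells (10), satellite cells (4), Schwann cells (3), adipocytes (7) or red blood cells (5) was called. The part of macrophage RNA in the rises was not tested.

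The 0 h pool held 2 training states, so its members were also compared with each other, without the shared library (2 untrained and 2 trained libraries). Of the 408 called genes that could be tested here, 0 were called by limma and 35 were at an unadjusted p below 0.05. Over all 11894 tested genes the numbers were 21 (0.177%) and 545 (4.58%). The largest difference among the 408 was that of Hspa1b, with 121 and 120.4 TPM in the untrained and 95.1 and 31.4 TPM in the trained libraries (log2 difference -1.13, trained minus untrained, adjusted p = 0.996). The median absolute difference was 0.18 for the 408 genes and 0.10 for all genes. Against sedentary muscle, 43 of the 80 named genes called with all 5 libraries were not called with only the 2 trained libraries. With only the 3 libraries carried as untrained, which include the shared one, 17 were not called. These counts rest on unlike numbers of libraries and do not compare the states. In the direct comparison, with 2 libraries per state, a missing call does not show that the states were alike. Of the 21 genes called, 18 had a library at 0. Among them, the protein-coding genes of the nuclear genome were Cox15, an enzyme of heme A synthesis (4.48 and 4.46 TPM untrained, 11.3 and 11.9 TPM trained, 1.28, adjusted p = 0.0154), and Gatad1, a chromatin reader (17.7 and 17.5 TPM untrained, 32.4 and 31.7 TPM trained, 0.85, adjusted p = 0.0337). Neither call held in the limma fit of all 20 distinct libraries, in which 0 genes were called and 528 were at an unadjusted p below 0.05. Neither gene was among the 414 called at 0 h.

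Levels at later times are given as a description, since all comparisons share the sedentary libraries. The genes were also selected for being higher at 0 h in these libraries. A high median at 0 h and a lower one later are therefore in part set by that choice. The shared library is counted as untrained at 0 h. The 380 risen genes had a median log2 difference from sedentary muscle of 1.06 at 0 h, 0.47 at 6 h and 0.15 at 72 h in untrained mice, and of 1.07, 0.21 and 0.13 in trained mice. The gene groups did not decline alike. The 27 risen immediate early genes had medians of 2.69, 0.62 and 0.09 in untrained and 2.90, 0.03 and 0.07 in trained mice. The 17 risen chaperones had 1.37, 1.88 and 0.24 in untrained and 1.14, 0.53 and -0.05 in trained mice. The 9 risen glucocorticoid targets were still high at 6 h in both, at 1.14 and 1.39.

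**Figure D5:**
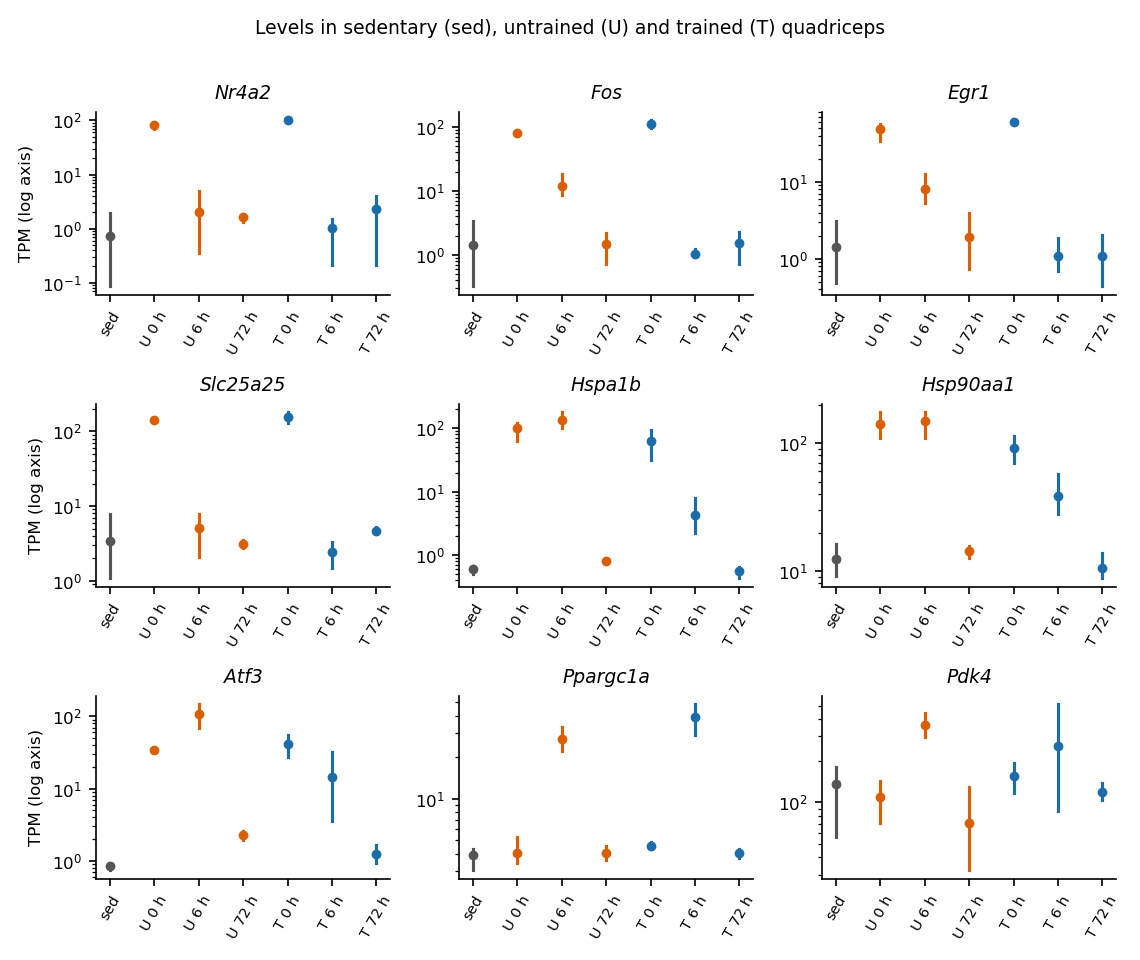
TPM (log axis) of 9 genes in sedentary muscle and in untrained and trained muscle at 0, 6 and 72 h. Dots are group means and lines run from the lowest to the highest library (n = 3, except trained 0 h with n = 2, where the library that both 0 h groups held is counted as untrained). Nr4a2, Fos, Egr1 and Slc25a25 peak at 0 h, Ppargc1a is level at 0 h and has its highest means at 6 h.

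Single genes differed in this course. Slc25a25 went from 143 ± 8.11 TPM at 0 h to 5.07 ± 2.87 TPM at 6 h in untrained muscle (SD, n = 3), and to 2.42 ± 0.919 TPM at 6 h in trained muscle. Irs2 and Ddit4 were at 3.04 ± 0.629 and 6.07 ± 2.01 TPM at 6 h in untrained muscle. Atf3 was higher at 6 h than at 0 h in untrained muscle (109 ± 39.99 and 34.0 ± 2.06 TPM) but not in trained muscle (14.3 ± 15.8 TPM). Otud1 likewise was at 52.1 ± 31.3 TPM in untrained and at 3.71 ± 3.17 TPM in trained muscle at 6 h. Ppargc1a, level at 0 h, had 27.1 ± 5.49 and 38.9 ± 9.75 TPM at 6 h in untrained and trained muscle. Aplnr, which fell at 0 h, was at 1.37 ± 0.290 and 1.35 ± 0.137 TPM at 6 h, between its 0 h and sedentary levels. These differences between times and training states were not tested here.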

How the data were processed

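Quadriceps RNA was measured in 5 libraries at 0 h and 3 sedentary ones. The authors made the libraries from total RNA with an unstranded kit, aligned reads to GRCm39 with STAR 2.7.9, quantified genes with Salmon 1.5.0 (per the labels) and deposited TPM for 53738 gene symbols. The library totals were 997304 to 997833 TPM. TPM keep no depth, so precision rests on the spread between libraries. The median within-group SD was 0.13 (sedentary) and 0.14 (0 h) on the log2 scale. Groups came from the sample labels.

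From the deposited TPM, log2(TPM + 0.5) was fitted with limma 3.58.1 (R 4.3.3; variance trend, moderated test, 6 residual degrees of freedom, Benjamini-Hochberg adjustment over 11885 genes). The mitochondrial share was compared with a two-sided exact permutation test. On simulated data for 0 h against sedentary (11885 genes), 79 of 100 genes changed by a log2 of 1 were recovered. Of those changed by 2, 92 of 100 were recovered, and there were 9 false calls. The simulated noise was normal and independent between genes, with as many rises as falls and no shift of all genes. The real data differ from this, so these counts are not error rates of the real comparison. Alternatives were pseudocounts of 0.1 and 1, no filter, a filter at 5 TPM, median-of-ratios, quantile and rescaled values, protein-coding genes only, no trend, robust variance, sample weights, the replicate block, all 20 distinct libraries, a training term, no fold threshold, a test against a fold of 1.2, subsets of the 0 h libraries, and each library left out in turn. Genes are named by rule: the 12 protein-coding nuclear genes with the largest rises and falls (not overlapping, higher mean at least 2 TPM), up to 6 called members of each of 34 lists, members not called where needed to describe a list, and Fos, Egr1, Nr4a3, Ppargc1a, Hspa1b, Pdk4, Vegfa and Myh4. Csrnp1 was singled out after its values were seen. The comparison, lists and rules were chosen with earlier results of these data known. Gene positions are GRCm39, promoter sequences RefSeq GRCm38.p6. Python 3.11.15, pandas 2.3.3, scipy 1.17.1 and matplotlib 3.10.9 were used. The table held 0 columns without a sample.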

Additional observations from a re-analysis of the deposited data

Results flagged for a closer look

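In 85 groups of 5 libraries at 0 h tested for a value far from the others (gap to the nearest library over the range of the group, critical value 0.710), 4 were found, and chance alone gives about 1 in 20. Egr1 was low in untrained 0 h replicate 2, at 34.5 TPM against 56.1 to 63.6 TPM in the other 0 h libraries. Ccn1 was low in the same library, at 41.8 TPM against 54.4 to 59.8 TPM. Irs2 was high in trained 0 h replicate 2, at 23.3 TPM against 12.6 to 15.0 TPM. Id1 was low in trained 0 h replicate 3, at 11.9 TPM against 14.5 to 15.4 TPM. In each case the value was still above every sedentary library.

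Between trained and untrained muscle at 0 h, 21 genes differed by limma (2 libraries each, without the shared library). The protein-coding nuclear genes among them were Gatad1, with a log2 difference of 0.85 (trained minus untrained), and Cox15, with 1.28. With all 20 distinct libraries in the limma fit 0 genes were called (528 at an unadjusted p below 0.05), so neither call held there. For Gatad1 the trained libraries (32.4 and 31.7 TPM) were near the sedentary ones (29.2, 29.4 and 32.2 TPM), and the untrained ones (17.7 and 17.5 TPM) were lower, as was the shared library (19.4 TPM). For Cox15 the sedentary libraries (7.90, 6.90 and 8.08 TPM) and the shared library (8.20 TPM) lay between the untrained and the trained ones.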

How the results depend on the processing

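The number of called genes (414) moved by over 1.5 times with some settings. It was 232 with a mean of at least 5 TPM (216 higher, 16 lower; 6246 genes tested), 790 without a fold threshold (736 and 54), 268 when tested against a fold of 1.2 (254 and 14) and 167 with only trained 0 h replicates 2 and 3 (152 and 15). The number of lower genes was 53 after median-of-ratios scaling, 57 after quantile normalization, 95 after rescaling and 57 with all 20 distinct libraries. With 1 library left out in turn, 332 to 444 genes were called, 292 to 412 higher and 24 to 40 lower. The replicate numbers did not pair the samples (correlations of deviations between -0.06 and 0.09), and with the replicate block 322 genes were higher and 26 lower.

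The 21 genes between trained and untrained muscle became 12 with the shared library as untrained, 28 after median-of-ratios scaling, 14 with a pseudocount of 0.1, 35 without a filter, 5 with a mean of at least 5 TPM, 7 with the replicate block, 0 with all 20 distinct libraries in limma (528 at an unadjusted p below 0.05) and 18 to 48 with 1 library left out. The mitochondrial share differed by -4.79 percentage points without the shared library (exact permutation p = 0.0571) and by -6.34 to -3.95 with 1 library left out (p = 0.0571 to 0.0952, the smallest these designs allow).

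Of 2066 values of 84 named genes under the alternatives, 1799 kept their direction and their side of the threshold, 256 lost the call and 11 changed sign. The 11 were of genes not called: Ppargc1a (quantile -0.0028, rescaled -0.028, without sedentary replicate 1 -0.028, range with 1 library left out -0.028 to 0.20) and Pdk4 (median-of-ratios -0.10, quantile -0.13, rescaled -0.15, weights -0.26, untrained only -0.18, without sedentary replicate 3 -0.53, untrained replicate 3 -0.04 or trained replicate 3 -0.15, range with 1 library left out -0.53 to 0.31). The cause of these shifts was not tested. Unknown depth limits what can be said of genes near 1 TPM.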

Other observations

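Genes outside the lists that were called at 0 h are given here as values. They were chosen after their values were seen. Actg1, a non-muscle actin, had 94.6, 106 and 115 TPM in sedentary and 203, 212, 231, 215 and 251 TPM in 0 h libraries (log2 difference 1.08, SE 0.09, limma adjusted p = 0.00056), Tpm4 rose by 1.01, Actb by 0.88, the non-muscle myosin Myh9 by 0.79 and the actin crosslinker Flna by 0.78. Abra, an actin-binding protein of striated muscle, rose by 1.73, from 19.5 to 21.0 TPM to 48.0 to 95.6 TPM. The arrestin-like gene Arrdc2 rose by 2.81 (3.18 to 5.90 TPM and 21.9 to 46.9 TPM) and its relative Arrdc3 by 1.32. Coq10b, a coenzyme Q binding protein, had 5.51, 3.18 and 4.76 TPM in sedentary and 17.3, 21.5, 24.9, 25.2 and 23.7 TPM in 0 h libraries (2.23, SE 0.18, adjusted p = 0.00052).

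The Notch ligand Dll1 and the Notch target Hes1 rose by 1.91 and 2.10. Hes1 was at 17.5 to 19.7 TPM in 3 of the 0 h libraries and at 40.5 and 36.4 TPM in the shared library and trained replicate 3, against 4.76 to 6.44 TPM in sedentary muscle. The kinase Pim1 rose by 2.04, the repressor Tgif1 by 2.14, the scaffold Akap12 by 2.13, the phosphatase subunit Ppp1r10 by 1.93 and the antioxidant factor Nfe2l2 by 1.30. The ubiquitin ligase Siah2 was among the most even, with 2.73, 2.72 and 2.91 TPM in sedentary and 6.50 to 6.97 TPM in 0 h libraries (1.14, SE 0.05, limma adjusted p = 4.31e-05). Among the falls were the endothelial gene Myct1 (-0.96), the ADP-ribosyltransferase Art5 (-0.84) and the nitric oxide receptor subunit Gucy1a1 (-0.65). Thbd, the endothelial receptor of thrombin, rose by 1.39, so genes of the same cell type moved in both directions.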
